A study of Mus musculus with 2 samples.

Results

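The genes described here belong to families linked to cell death: the BCL2 family, the caspases, and proteins that start or block caspase activity. They were measured in regulatory T (Treg) cells. They were taken by name from a list of 34 genes, as the gene spots of 2 microarrays whose gene name stood on that list. This gave 46 probes for 32 of the 34 genes, out of 30069 gene names on the array. The rule itself uses gene names and no measured value, but the list was drawn up with earlier results of these data known. The arrays held total RNA of sorted Treg cells from mice 5 weeks old, 1 array for Nr4a-deficient cells and 1 for wild-type cells. The protocols call the first mice Nr4a-TKO, and that name is used here for their library. The sources used here do not give the strain, the alleles, the tissue, the sort markers or the number of animals per library.

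With 1 array per group the genotypes cannot be tested against each other, no p-value is given, and each value describes these 2 libraries, whose number limits the precision. Values are processed signals in intensity units. Before differences were taken, each array was put on the log2 scale and set to its 75th percentile, which was 1762 in the library labelled Nr4a-TKO and 2047 in the wild-type library. A log2 difference is the library labelled Nr4a-TKO minus wild-type, and a fold change comes from that scaled difference. A gene stands for its brightest probe, and higher or lower means at least 2-fold. On this scale, the signals of the 8 spike-in RNAs in the library labelled Nr4a-TKO exceeded those in the wild-type library by 0.37 ± 0.058 (SD, n = 8). Set to the spike-ins, every log2 difference is therefore 0.37 lower. Repeated spots of 1 probe differed between the arrays with an SD of 0.040 to 0.058 on the log2 scale in the 3 brighter of 6 brightness ranges, 0.11 in the next, and 0.34 and 0.50 in the dimmest. Each member probe had a single spot on each array. The spot SD is technical and says nothing of the spread between animals or libraries.

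The label itself has a limit. The Nr4a1 probe had 80410 intensity units in the library labelled Nr4a-TKO and 51440 in the wild-type library, and both Nr4a2 probes also gave positive differences (0.98 and 0.68). The Nr4a3 probe stayed near background on both arrays. The deleted part of each gene is not given, and a probe outside it checks nothing. Of the T cell genes, Cd3e, Cd3g, Cd4, Ctla4 and Ikzf2 lay within 0.2 of 0. Il2ra, which encodes the Treg surface marker CD25, was past 2-fold lower (log2 difference -1.27), with 16620 intensity units in the library labelled Nr4a-TKO and 46650 in the wild-type library. Foxp3, the Treg lineage factor, had 74.5 intensity units in the library labelled Nr4a-TKO and 85.4 in the wild-type library, close to background on both.

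BCL2 proteins work at the outer membrane of the mitochondrion. Pro-survival members such as BCL2, BCL-XL and MCL1 hold the pore-forming BAX and BAK in check, and BH3-only proteins such as BIM and PUMA bind the pro-survival members and release that hold. Once the membrane is open, cytochrome c leaves the mitochondrion, joins APAF1 and activates caspase 9, while death receptors at the cell surface activate caspase 8 through FADD. In Treg cells, MCL1 is required for survival and BIM limits their number. Transcripts of most of these genes also change with activation and cytokine supply.

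Which transcripts a probe reads matters for this family, so bases 31 to 60 of the 60-base probes behind the main results are printed here from the scanner files, as 5′ to 3′ transcript sequence, with positions on mm9. Capitals mark AATAAA, the hexamer found near the 3′ end of many transcripts.
Bcl2a1d, chr9:88618165-88618224, minus strand: cttgtctttccagagttgcagatattttgt
Bcl2l1 main probe, chr2:152606404-152606463, minus strand: agtAATAAAtggtgtctgtgactctgtgaa
Bcl2l2 brighter probe, chr14:55506840-55506899, plus strand: tttacttttttaaatcataaacggcaggag
Bcl2l2 second probe, chr14:55507008-55507067, plus strand: AATAAATAAATAAAgcccagaaatttaatg
Bbc3, chr7:16903403-16903462, plus strand: agatactgtacatgcactgctgtagatata
Bmf, chr2:118354496-118354555, minus strand: ggtacagtttttAATAAAaccatttaaagc
Bik, chr15:83374048-83374107, plus strand: acctcagggaaaacatctggtcctggagag
Casp1, chr9:5307206-5307265, plus strand: aatacttccttagatgatgcAATAAAtatt
Casp4 main probe, chr9:5336658-5336717, plus strand: ccatagacaagcaaacaagcaaaAATAAAa
Casp4 second probe, chr9:5336663-5336722, plus strand: gacaagcaaacaagcaaaAATAAAacaaaa
The hexamer stood in 9 of the 46 member probes (19.6%) and in 12.6% of all gene probes of the array. Whether a probe lies in a coding exon or an untranslated region is not given, since no mm9 annotation was used. The array design assigns the Bcl2a1d probe to transcripts of Bcl2a1a, Bcl2a1b and Bcl2a1d, so these 3 listed genes share 1 value. The 2 Casp4 probes share a run of 55 bases, and so they repeat each other and are no separate evidence.

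Among the 30 members well above background on both arrays, 0 reached a 2-fold higher signal in the library labelled Nr4a-TKO, and 1, Bmf, a 2-fold lower one. Of all 16298 genes with such a signal, 2.64% were higher by this rule and 3.06% lower, so 1 of 30 is close to the background. At 1.5-fold, 3 members were higher (Casp4, Bik and Casp1) and 3 were lower (Bmf, Bbc3 and Bcl2l1), against 5.8% and 6.34% of all genes. The other 24 lay within 0.5 of 0 on the log2 scale, which holds for 85.2% of all genes. Over all 18540 genes detected on at least 1 array, with bounds included, 871 were at least 2-fold higher (4.7%) and 915 lower (4.94%), or 560 and 1508 on the spike-in scale. Hrk, a BH3-only gene of neurons, had 13.3 units in the library labelled Nr4a-TKO and 18.3 in the wild-type library, and Bok, a relative of Bax, had 15.2 in the library labelled Nr4a-TKO and 21.5 in the wild-type library. Both stayed near background on the arrays and get no fold.

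**Figure D1:**
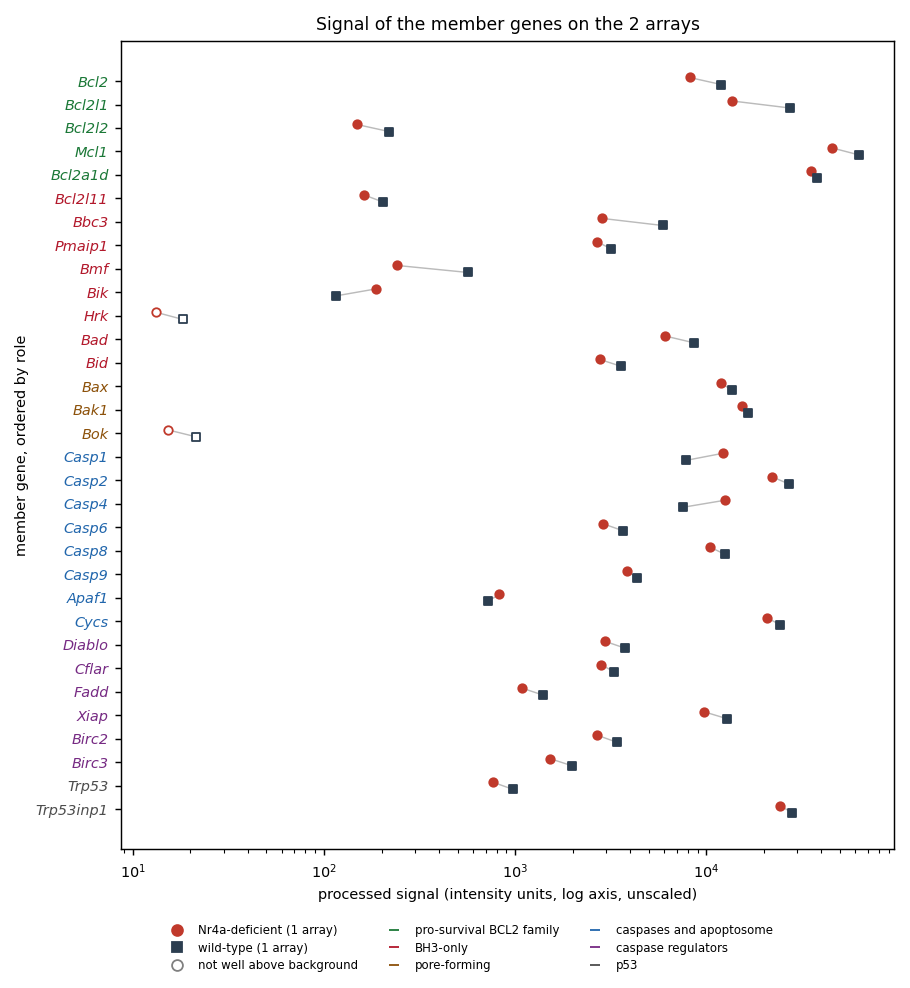
Processed signal of the 32 member genes with a probe, on a log axis and before scaling, as red circles for the library labelled Nr4a-TKO and dark squares for the wild-type library (1 array each, no error bar). Gene names are coloured by role, open symbols (Hrk and Bok) were not well above background, and the red circle lies right of the dark square for Bik, Casp1, Casp4 and Apaf1. A brighter probe is not a more abundant transcript, so genes should be compared between arrays and not with each other.

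Of the pro-survival genes, Bcl2l1 was the lowest. Bcl2l1 encodes BCL-XL, and its main probe had 13656 intensity units in the library labelled Nr4a-TKO and 27470 in the wild-type library, a log2 difference of -0.79 or 1.73-fold lower. Its second probe, on chr2:152655185-152655244, lies 48781 bases away in the gene and had 203 units in the library labelled Nr4a-TKO and 362 in the wild-type library. That is a log2 difference of -0.62, so both probes pointed the same way and differed by 0.18. Bcl2, the founding pro-survival gene, had 8180 units in the library labelled Nr4a-TKO and 11969 in the wild-type library, a log2 difference of -0.33. Mcl1, on which Treg cells depend, had 45601 units at its main probe in the library labelled Nr4a-TKO and 63154 in the wild-type library. The log2 differences of its 2 probes were -0.25 and -0.17, well short of 2-fold, or -0.63 and -0.54 on the spike-in scale. The probe shared by the Bcl2a1 genes, which encode the pro-survival protein A1 of activated lymphocytes, had 35372 units in the library labelled Nr4a-TKO and 37802 in the wild-type library. Its difference was 0.12, or -0.25 on the spike-in scale. The median of the 5 measured pro-survival genes was -0.33, against -0.014 over all genes above background on both arrays. This median depends on the probe taken for Bcl2l2. It was -0.21 with the probes of a gene averaged and -0.25 with the probe of the highest value on either array.

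Bcl2l2, which encodes the pro-survival protein BCL-W, had no single answer. Its 2 probes start 168 bases apart and gave opposite results. The probe at chr14:55506840-55506899 had 148 intensity units in the library labelled Nr4a-TKO and 218 in the wild-type library. Its log2 difference was -0.34, about the spot SD of 0.34 at that brightness. The probe nearer the 3′ end, which holds the AATAAA run shown above, had 338 units in the library labelled Nr4a-TKO and 16.9 in the wild-type library, where it was not well above background. Against the lowest level counted as above background there, it was at least 5.31-fold higher. Which transcripts each probe reads was not tested, and the value of Bcl2l2 depends on which one stands for the gene.

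The BH3-only genes spread more than any other role, from -1.02 to 0.92. Bmf, whose product is held on the cytoskeleton until a cell loses attachment or growth signals, had 240 intensity units in the library labelled Nr4a-TKO and 565 in the wild-type library. It was 2.03-fold lower, a log2 difference of -1.02, just past the threshold with a spot SD of 0.11. With normexp background correction and quantile normalization together it was -0.88, short of 2-fold, while on the spike-in scale Bmf, Bbc3 and Bcl2l1 were all past 2-fold (-1.39, -1.20 and -1.16). Bbc3, which encodes the potent killer PUMA, had 2858 units in the library labelled Nr4a-TKO and 5902 in the wild-type library, 1.78-fold lower (log2 difference -0.83, spot SD 0.040). Both genes were thus lower in the library in which Bcl2l1, their pro-survival counterpart, was also lower. Bik, known mainly from B cells and epithelia, went the other way, with 187 units in the library labelled Nr4a-TKO and 115 in the wild-type library. It was 1.89-fold higher (log2 difference 0.92), but the spot SD at that brightness was 0.34.

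The other BH3-only genes lay closer to 0. Bcl2l11, which encodes BIM, the main limit on Treg number, had 162 intensity units in the library labelled Nr4a-TKO and 203 in the wild-type library at its brighter probe. Its 2 probes gave log2 differences of -0.11 and -0.19, smaller than the spot SD of 0.34, so no difference was detectable on the percentile scale. On the spike-in scale these differences were -0.48 and -0.57, larger than that SD, so the reading depends on the scale. The 2 probes of Bad, whose product is switched off by survival kinases, gave -0.30 and -0.29. Bid, which carries the caspase 8 signal to the mitochondrion, lay at -0.16. Pmaip1, which encodes the MCL1 antagonist NOXA, lay at -0.025, within its spot SD of 0.058. The median of the 7 measured BH3-only genes was -0.16. The pore-forming Bax and Bak1 lay at 0.025 and 0.11, or -0.35 and -0.26 on the spike-in scale.

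A ratio of 2 probes within 1 array is untouched by any single factor per array, such as the percentile, median or spike-in scale, but quantile and loess normalization, which act by brightness, can change it. Relative to Bcl2l1, in the library labelled Nr4a-TKO the signal of Bcl2l11 was higher by 1.60-fold, that of Bax by 1.76-fold and that of Bak1 by 1.87-fold, while that of Bbc3 differed by -0.038 on the log2 scale. Over all 7 scalings the first of these lay between 1.40 and 1.60-fold, that of Bax between 1.72 and 1.76 and that of Bak1 between 1.86 and 1.87. The Bcl2l11 probe had a spot SD of 0.34. Pro-survival genes were also higher relative to Bcl2l1, Bcl2 by 1.375-fold, Mcl1 by 1.45-fold and the Bcl2a1 probe by 1.88-fold. Bmf was lower, at 0.853 of its wild-type ratio. All ratios to Bcl2l1 contain its own log2 difference of -0.79, so they do not set pro-death genes apart. Relative to Bcl2, the log2 ratio of Bcl2l11 differed by 0.22, but by 0.036 with cyclic loess. That of Mcl1 differed by 0.079 and that of Bmf by -0.69, or -0.62 to -0.82 over the scalings. These ratios compare changes of probe signals and say nothing of protein levels.

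**Figure D2:**
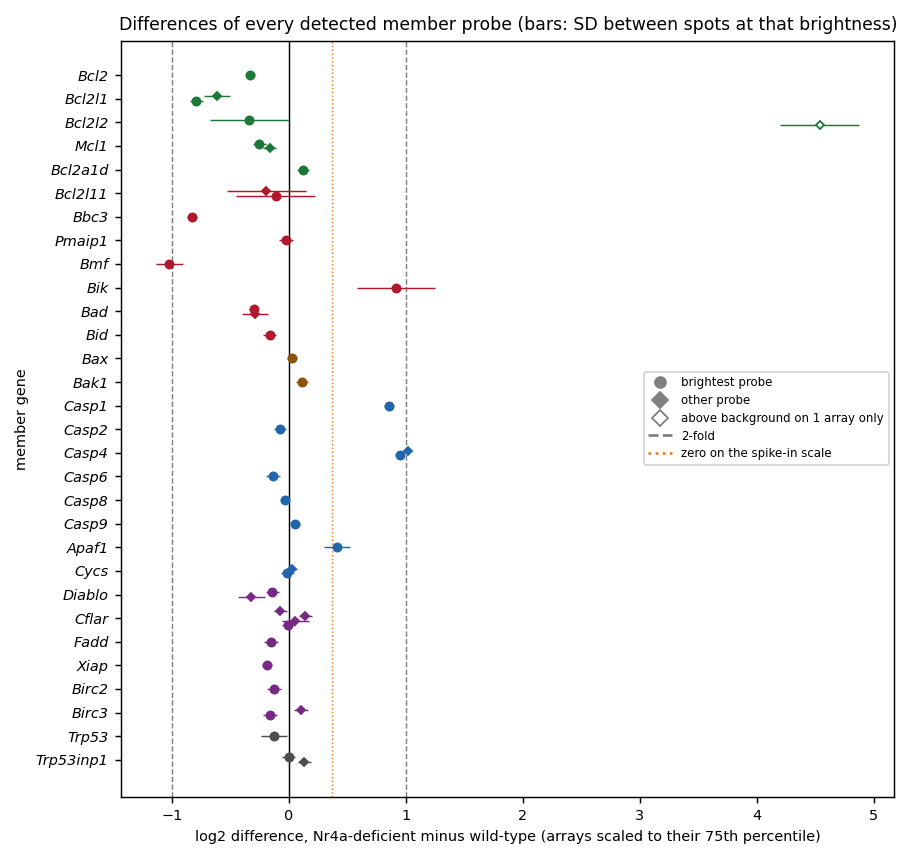
Log2 difference (x axis, Nr4a-deficient minus wild-type) of every detected member probe, with circles for the brightest probe of a gene, diamonds for its other probes, an open diamond for the Bcl2l2 probe above background on 1 array only (plotted at its measured value of 4.54, where the bound is 2.41), and bars for the SD between repeated spots at that brightness. Dashed lines mark 2-fold and the dotted line marks zero on the spike-in scale. Bmf lies past the left dashed line, and the second Casp4 probe, at 1.01, lies just past the right one.

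Casp1 and Casp4 were the highest of the caspases, and both serve inflammation rather than classical apoptosis. Caspase 1 matures interleukin 1 beta and interleukin 18 in inflammasomes, and mouse Casp4, also called caspase 11, senses bacterial lipopolysaccharide inside the cell. Casp4 had 12486 intensity units in the library labelled Nr4a-TKO and 7523 in the wild-type library at its main probe, 1.93-fold higher (log2 difference 0.95), and its overlapping probe had 9441 units in the library labelled Nr4a-TKO and 5428 in the wild-type library (1.01). Casp1 had 12201 units in the library labelled Nr4a-TKO and 7846 in the wild-type library, 1.81-fold higher (log2 difference 0.85). The spot SD at this brightness was 0.040. On the spike-in scale the differences were 0.58 for the main Casp4 probe and 0.48 for Casp1. These genes are neighbours on chromosome 9, with no protein-coding gene between them in RefSeq's GRCm38.p6 annotation. The third caspase gene of that cluster, Casp12, stayed near background on both arrays.

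Casp1 and Casp4 differed in the same direction, so the 250 bases before their annotated starts are shown, from RefSeq on GRCm38.p6, both on the plus strand. Capitals mark GTAAACA, the core letters of forkhead factor sites.
Casp4, the first of 2 annotated starts, chr9:5308599-5308848: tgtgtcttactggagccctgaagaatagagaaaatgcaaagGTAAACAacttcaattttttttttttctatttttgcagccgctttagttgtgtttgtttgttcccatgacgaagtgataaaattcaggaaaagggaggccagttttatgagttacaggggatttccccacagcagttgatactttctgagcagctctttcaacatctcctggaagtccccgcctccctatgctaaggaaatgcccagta
Casp1, chr9:5298267-5298516: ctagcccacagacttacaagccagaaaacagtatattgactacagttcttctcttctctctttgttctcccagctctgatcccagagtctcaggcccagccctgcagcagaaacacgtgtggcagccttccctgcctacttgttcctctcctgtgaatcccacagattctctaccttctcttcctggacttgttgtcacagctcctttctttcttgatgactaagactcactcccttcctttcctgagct
Searched on both strands over such windows, GTAAACA stood in those of Casp4, Bbc3 and Bcl2l11, 3 of the 31 members with a window (9.68%), against 3.54% of 27025 genes. In Bcl2l11 the match was caagacactaggGTAAACAcgccggggtgg at chr2:128125799-128125828, and in Bbc3, on the other strand, gtctggcgggttTGTTTACaaacaatgggg at chr7:16310082-16310111. AAAGGTCA (the NBRE bound by Nr4a receptors), TTCNNNGAA (bound by STAT factors) and the ISRE core (bound by interferon regulatory factors) stood in no member window, against 1.55%, 8.13% and 3.46% of genes. A match is a description of letters and not a binding site. The genes with a GTAAACA match differed in direction, with 0.95 for Casp4, -0.83 for Bbc3 and -0.11 for Bcl2l11.

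The caspases and partners of the apoptotic pathway itself were close to 0. Casp8, the initiator below death receptors, lay at -0.038, and Casp9, the initiator below the mitochondrion, at 0.053. Casp2, an initiator linked to genome stress, lay at -0.075, and Casp6, an executioner, at -0.13. Cycs, the gene of cytochrome c, had 20763 intensity units in the library labelled Nr4a-TKO and 24348 in the wild-type library, and its 2 detected probes lay at -0.014 and 0.026. Apaf1, the scaffold of the apoptosome, stood somewhat apart, with 828 units in the library labelled Nr4a-TKO and 722 in the wild-type library. It was 1.33-fold higher (log2 difference 0.41, spot SD 0.11), and 0.042 on the spike-in scale. The median of all 8 genes of this role was 0.020.

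The 6 regulators of caspases all lay at or below 0, within a narrow range of -0.19 to -0.0048. Xiap, the direct caspase inhibitor, had 9701 intensity units in the library labelled Nr4a-TKO and 12847 in the wild-type library (log2 difference -0.19). Its antagonist Diablo lay at -0.14 at the brighter probe and -0.32 at the other. Birc2 and Birc3, neighbouring genes of the cIAP ubiquitin ligases, lay at -0.13 and -0.16, and the second Birc3 probe lay at 0.10. Fadd, the adaptor of death receptors, lay at -0.15. Cflar, which encodes the caspase 8 inhibitor FLIP, had 4 probes between -0.074 and 0.14. The transcription factor gene Trp53, which encodes p53, had 763 units in the library labelled Nr4a-TKO and 969 in the wild-type library (log2 difference -0.13, spot SD 0.11), and Trp53inp1, a p53-induced stress gene, lay at -0.0027 and 0.13 at its 2 probes.

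Small negative differences were frequent among the members. Of the 30, 22 lay below 0 (73.3%) and 8 above, with a median of -0.12, against 52.2% below 0 and a median of -0.014 over all 16298 genes. The count depended on the scaling. It was 24 with the arrays set to their medians, 26 on the spike-in scale, 19 with quantile normalization, 18 with cyclic loess and 17 with normexp background correction followed by quantile normalization. Of all 18540 genes detected on at least 1 array, 15375 likewise lay below 0 on the spike-in scale, so 26 of 30 sets the members little apart there. The shares of all genes under the other alternatives were not counted. By brightness, among all genes the share below 0 was 43.1% in the dimmest range holding members, where 2 of 3 members lay below 0. It was 45.7% in the next range, with 2 of 3 members, and 52.9% in the middle range, with 8 of 8 members. In the range above that it was 58.45%, with 5 of 9 members, and in the brightest 59.3%, with 5 of 7. The share of members below 0 was under that of all genes in the range with 9 members and above it in each other range. Each range held few members. The part of brightness in the count was not tested. Across 7 scalings, 21 of the 30 members kept 1 sign, 17 of them below 0. The deposited value table gave nearly the same differences as the scanner values, and the median and spike-in scales shift all differences by 1 amount each. The 7 scalings are thus not independent of each other, and the share of all genes that kept 1 sign was not counted. The 4 above 0 in each of the 7 scalings were Casp1, Casp4, Bik and Apaf1.

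**Figure D3:**
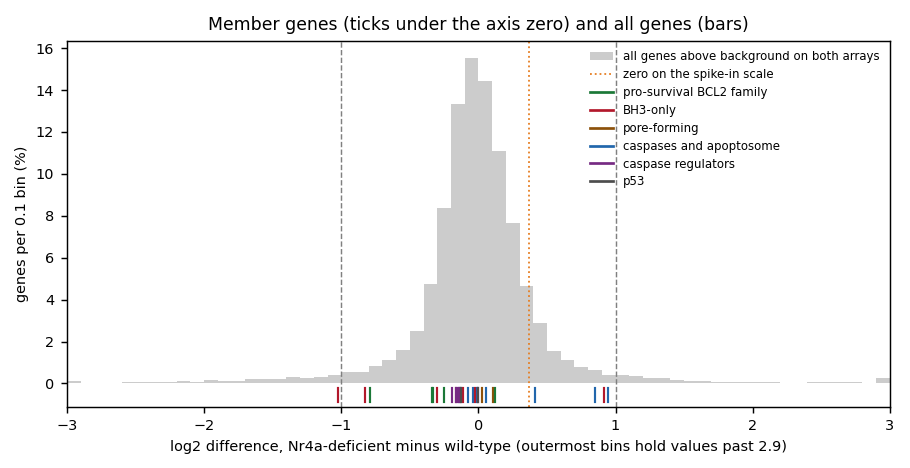
Distribution of log2 differences (x axis, Nr4a-deficient minus wild-type) over the 16298 genes above background on both arrays (grey bars, percent of genes per bin), with the 30 members as coloured ticks by role. The ticks gather slightly left of 0, 1 (Bmf, -1.02) lies past the left 2-fold line, and none lies past the right one.

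**Figure D4:**
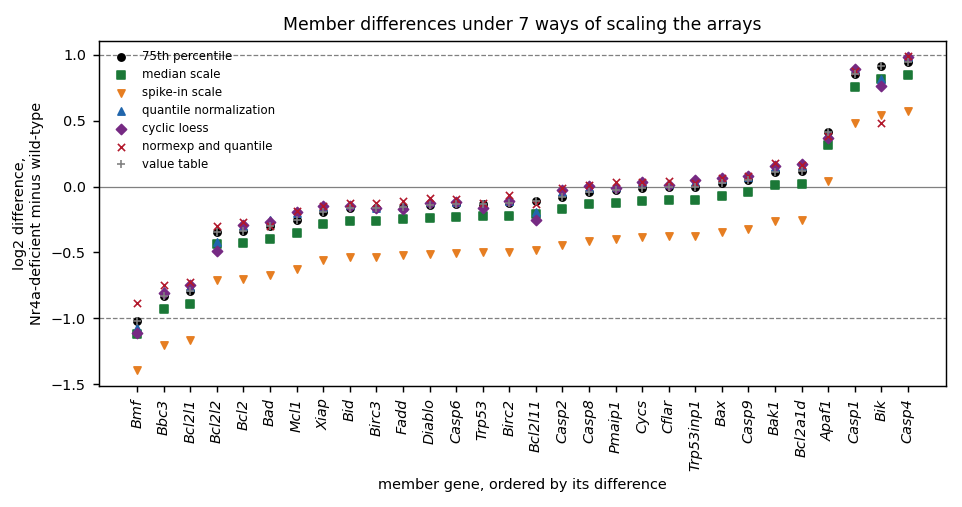
Log2 difference (y axis, Nr4a-deficient minus wild-type) of the 30 members, ordered along the x axis, under 7 ways of scaling the arrays, 1 symbol each. The spike-in scale (orange triangles) is lower by 0.37 throughout, and Casp1, Casp4, Bik and Apaf1 stay above 0 in each.

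Beyond the members, 5 lists held 75 other cell death genes, of which 72 were detected, all on both arrays. Past 2-fold, 3 of these were higher and 3 lower, and 61 lay within 0.5 of 0. These shares, 4.17% each way and 84.7%, are close to the 2.64%, 3.06% and 85.2% of all genes, so the counts set these lists little apart, and the named genes are given as values. Of 14 genes of death receptors and necroptosis, 1 was higher, Fcmr at 2.10-fold (log2 difference 1.07, 0.70 on the spike-in scale), a receptor for IgM that was first described as an inhibitor of Fas. The death receptor gene Fas itself lay at -0.45, its ligand Fasl at 0.41 and the related ligand Tnfsf10 (TRAIL) at -0.90. Of 17 mitochondrial genes, 1 was lower, Bcl2l15 at 2.38-fold (log2 difference -1.25), a little-studied relative of BCL2. In the list of other caspases and substrates, 2 of 13 genes were lower. Aim2, the inflammasome sensor of cytosolic DNA, had a log2 difference of -2.52 or 5.74-fold lower, and Il18, a substrate of caspase 1, was 3.11-fold lower (log2 difference -1.64), in the library in which Casp1 was higher. The inflammasome genes Nlrp3, Nlrc4, Pycard and Gsdmd lay at 0.45, 0.30, 0.0029 and -0.11. Nlrp3 and Nlrc4 were dim, with 122.6 and 104.7 intensity units in the library labelled Nr4a-TKO and 104.5 and 98.69 in the wild-type library. The spot SD at that brightness was 0.34, so their values are about the size of the spot noise.

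Of 8 other inhibitor of apoptosis genes, 1 was higher, Naip2 at 2.33-fold (log2 difference 1.22), a sensor of bacterial secretion systems. Birc5, which encodes survivin and serves mitosis, lay between -0.55 and -0.54 at its 3 probes. Of 20 regulators and targets of p53, 1 was higher, Cdkn1a, which encodes the cell cycle inhibitor p21. Its brightest probe was 3.31-fold higher (log2 difference 1.73), but another probe of the gene, above background in the wild-type library alone, was at least 5.18-fold lower. The p53 targets Mdm2, Zmat3, Sesn1 and Phlda3 lay at 0.18, 0.11, -0.063 and -0.084. The medians of the 5 lists ran from -0.11 (mitochondrial) to 0.15 (other inhibitor of apoptosis genes).

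**Figure D5:**
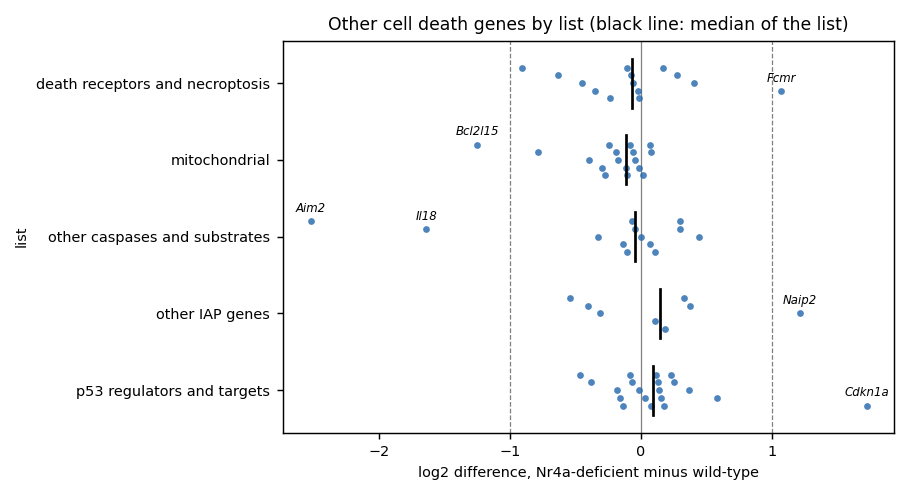
Log2 difference (x axis, Nr4a-deficient minus wild-type) of 72 detected cell death genes outside the member list, 1 point per gene, by list, with the median of each list as a black line and 2-fold as dashed lines. The 6 named genes (Fcmr, Naip2 and Cdkn1a on the right, Bcl2l15, Aim2 and Il18 on the left) lie past 2-fold.

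Casp1, Casp4 and the Bcl2a1 genes are also expressed by myeloid cells and Bik by B cells, and markers of other cells differed between these libraries. The marker lists were chosen with earlier results of these data known, so their counts and medians are no independent evidence. Of 10 plasmacytoid dendritic cell markers, all detected, 8 were at least 2-fold higher, with a median log2 difference of 3.51. Their summed scaled signal was 115 in the library labelled Nr4a-TKO and 81.7 in the wild-type library, and without Siglech, the brightest probe at a difference of 0.10, it was 37.8 in the library labelled Nr4a-TKO and 9.47 in the wild-type library. Of 10 B cell markers, 8 were detected and 2 were at least 2-fold higher, with a median log2 difference of 0.90. Their sums were 13.95 in the library labelled Nr4a-TKO and 7.515 in the wild-type library, while Pax5 and Blk were not well above background. Of 12 myeloid and dendritic cell markers, 11 were detected, 3 higher and 4 lower, with a median log2 difference of -0.27. Itgax, Clec9a and Lyz2 were higher (2.65, 2.49 and 1.03), and Adgre1, C1qa, C1qb and C1qc lower (-1.29, -1.55, -1.45 and -1.60). The sums were 49.9 in the library labelled Nr4a-TKO and 67.5 in the wild-type library, and Xcr1 was not well above background. The natural killer and CD8 T cell list had 2 of 8 detected markers higher, with sums of 3.497 in the library labelled Nr4a-TKO and 2.551 in the wild-type library, and Ncr1 was not well above background. Of the 4 detected erythroid and platelet markers 3 were lower, with sums of 7.21 in the library labelled Nr4a-TKO and 25.7 in the wild-type library. The part of these cells in the differences of Casp1, Casp4, Bik and the other members was not tested, and in bulk RNA fewer cells of a type and less RNA per cell cannot be told apart.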

How the data were processed

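Cy3-labelled RNA of 1 library labelled Nr4a-TKO (Nr4a-deficient) and 1 wild-type library was measured on 1 one-colour Agilent array each. The authors' deposited scanner files hold intensity values, made with Agilent Feature Extraction 10.7.3.1, per the file headers, with background subtraction and detrending within the array. No normalization between arrays is recorded. The deposited value table holds intensity values that lay within 1% of the scanner value for 99.6% of probes on either array, and served as an alternative.

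Control and outlier-flagged spots were left out. No spot was saturated. The log2 processed signal was set to each array's 75th percentile and the mean taken over repeated spots. Above background meant that more than 50% of the spots of a probe had the scanner's well-above-background call, as 58.7% of 39348 probes did in the library labelled Nr4a-TKO and 55.6% in the wild-type library. A gene was its brightest such probe by the mean over both arrays, and 1 array alone gave a bound. Names came from RefSeq (GRCm38.p6), members by array name. Python 3.11.15 and limma 3.58.1 were used, and the steps were tested on simulated data. All members were named, and of the 5 other lists each gene past 2-fold. Members and lists were chosen with earlier results of these data known.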

Additional observations from a re-analysis of the deposited data

How the results depend on the processing

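With 1 array per group no library could be left out. No paired analysis was possible because each group had 1 library. The member counts of 0 higher and 1 lower stayed as they were with median scaling, quantile normalization, cyclic loess, the value table and each of the 3 changes of the background filter or bounds. The count lower became 3 on the spike-in scale and 0 with normexp and quantile normalization together, where Bmf lay at -0.88. The count higher became 1 (Bcl2l2) when the probes of a gene were averaged, and 1 with the probe of the highest value on either array, an alternative chosen after seeing the data. At 1.5-fold there were 3 and 3, and at 3-fold 0 and 0. For all genes, the counts of 871 higher and 915 lower became 560 and 1508 with the spike-ins, 432 and 499 with both arrays above background, 2059 and 1785 without a filter, 1617 and 1610 at 1.5-fold, and 447 and 502 at 3-fold. The count higher alone moved past 1.5 times to 566 with normexp and quantile normalization together and to 1429 with measured values in place of bounds. Signal over background limits Bcl2l2, Bcl2l11 and Bik, whose spot SD was 0.34.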

Other observations

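Bcl2l2 was not the only cell death gene whose probes disagreed. Xaf1, an interferon-induced antagonist of XIAP, lay at -0.40 at its brightest probe and 4.28 at another, both above background on both arrays. In 6 of the 10 members for which this held of more than 1 probe, every such probe lay on the same side of 0. Among all 3799 such genes, 31.5% had probes on both sides of 0. The median distance between the outermost probes of a gene was 0.142 on the log2 scale over all these genes and 0.111 over the members.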
